A study of Sparus aurata with 53 samples.

Results

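Expression of bmal1 (clone C2_16398) and clock (clone C2_26384), the genes of the positive limb of the circadian clock, was followed over one day in whole larvae of gilthead sea bream (Sparus aurata). Both members were found by their clone codes on a custom oligonucleotide array of 13940 probes, and these 2 probes were read on all 53 arrays. The fish were 30 days old, counted from hatching, and lived at a constant 19 °C with the light switched on at 0 h zeitgeber time and off at 12 h. Single larvae were taken at 3 h intervals, the first at 0 h and the last at 24 h. Feed was available to all of them. Each of the 9 sampling times was represented by 6 larvae, except 12 h with 5, and each larva had 1 array, so that p-values rest on the spread between single larvae. Larvae shared rearing tanks, and the labels do not give the tank of each larva. No p-value takes the tank into account. The design has no constant darkness and no clock mutant, so a rhythm driven by the light cycle or by feeding and one kept by the clock itself cannot be told apart. RNA came from the whole body, and fewer cells of a type and less RNA per cell cannot be told apart in these values.

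BMAL1 and CLOCK are transcription factors of the bHLH-PAS family. They bind DNA as a heterodimer at E-box elements and switch on, among others, the period (per) and cryptochrome (cry) genes. PER and CRY proteins in turn hold back the activity of BMAL1 and CLOCK, which closes a loop of about a day, and a second loop through nuclear receptors of the ROR and REV-ERB families acts on the transcription of bmal1 itself. Teleost fish carry several copies of such genes. RefSeq lists bmal1a, bmal2, clocka, clockb and the related npas2 for this species (assembly fSpaAur1.1), and the clone codes of the array could not be tied to one of these copies.

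Values are log2 of the background-corrected intensity, scaled to the 75th percentile of its own array, so a value of -4 lies 4 log2 units below that percentile, and levels are not compared between genes. Both members were dim. The intensity of bmal1 lay between 1.6 and 104 (median 13.4) and that of clock between 2.21 and 191 (median 17.9), against 75th percentiles of 141 to 504 on the single arrays. The scanner software called bmal1 well above background on 34 of 53 arrays and clock on 40 of 53, while between 74.2% and 94.3% of all probes passed that call on an array. Neither spot was saturated or marked as an outlier on any array. The larvae of slide 7, which held 1 larva each of 9, 12, 15, 18, 21 and 24 h, stood apart for clock: the larva of slide 7 was the highest of its sampling time at 6 of 6 times. It was the highest for bmal1 at 3 of 6 times, and 1052 of 13940 probes (7.55%) were highest there at all 6 times. Comparisons over times, the fitted rhythm, the light phase and the relation between the members are therefore given without slide 7 too.

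Bmal1 was lowest when the light came on and highest toward the end of the light phase. At 0 h bmal1 ranged from -6.9 to -6.02 (median -6.5), and 0 of 6 larvae passed the background call, with intensities of 1.6 to 6.37 beside a median error of 1.9 given by the scanner software. At 3 h it ranged from -5.21 to -3.31 (median -4.38), and 4 of 6 larvae were above background. At 6 h it ranged from -4.3 to -3.62 (median -3.91) with 6 of 6 larvae above background and the smallest spread of the day (SD 0.29). The measured values of all larvae of 3 h and of 6 h lay above those of all larvae of 0 h. As no larva of 0 h and only 4 of 6 larvae of 3 h were above background, this order rests partly on undetected values. The share of all probes separated in this way was not counted.

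At 9 h bmal1 ranged from -4 to -2.09 (median -3.61), and the top value was the larva of slide 7. At 12 h, close to when the light went off, the 5 larvae had -4.2, -4, -3.83, -3.52 and -2.2, and again the last was on slide 7. The titles of these 5 larvae name a clock time shortly before the light went off. All larvae of both times were above background, and the other larvae of 9 h and 12 h overlapped with those of 6 h. At 15 h the range was -4.98 to -3.62 (median -4.34) and at 18 h it was -6.39 to -3.69 (median -4.81), each with 5 of 6 larvae above background.

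In the late night bmal1 was again at background, in all larvae of 21 h and in part of those of 24 h. At 21 h it ranged from -6.4 to -4.75 (median -5.75) with none of the 6 larvae above background. At 24 h it ranged from -7.12 to -4.53 (median -4.82) with 3 of 6 above background and the largest spread of the day (SD 1.15). At 24 h, 2 larvae at -7.12 and -6.63 lay well below the other 4, which lay between -4.99 and -4.53. The median share of all probes above background was 85.9% on the arrays of 21 h and 84% on those of 0 h. The arrays of 21 h also held the lowest 75th percentile of all (141.3, with 74.7% of probes above background). The part of array brightness in the low values of these single times was not tested. Over all times, limma's F test of bmal1 gave an adjusted p of 1.01e-08 with the 75th percentile of the array as a covariate. With the share of probes above background as a covariate, it gave 9.44e-10.

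Clock followed a similar course. It ranged from -5.52 to -4.55 (median -4.96) at 0 h, with 1 of 6 larvae above background, and from -4.9 to -3.37 (median -4.21) at 3 h, with 4 of 6. At 6 h it ranged from -4.35 to -3.22 (median -3.32) and at 9 h from -3.71 to -1.75 (median -2.95), with every larva above background at both times. At 12 h the 5 larvae had -3.59, -3.47, -2.81, -2.8 and -1.31. The larva at -1.31 was on slide 7, with an intensity of 191, and the other 4 of that time lay between 22.5 and 27.3.

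Clock was detected in every larva from 6 h through 18 h, while bmal1 was missed in 1 larva each at 15 h and 18 h. It ranged from -4.06 to -2.15 (median -3.29) at 15 h and from -4.76 to -3.26 (median -4.12) at 18 h, with 6 of 6 larvae above background at each time. At 21 h it ranged from -6 to -3.63 (median -5.1) and at 24 h from -5.42 to -3.47 (median -4.48), with 3 of 6 above background at each. The top value of each of these 4 times was the larva of slide 7.

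**Figure D1:**
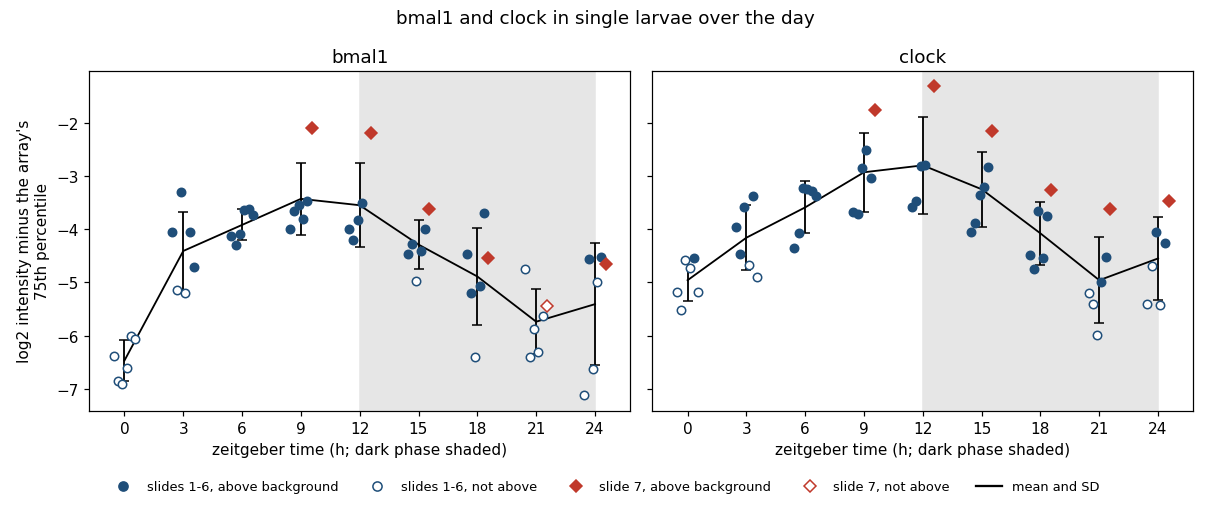
Log2 intensity minus the 75th percentile of the array (vertical axis) of bmal1 (left) and clock (right) in each larva against zeitgeber time in hours, with the dark phase shaded; filled symbols were well above background, open symbols were not, red diamonds are the larvae of slide 7, and the line with bars is the mean and SD of 6 larvae (5 at 12 h). No larva was above background for bmal1 at 0 h or 21 h, and the slide 7 larva is the top clock value at 6 of 6 times.

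Both members differed over the sampling times by limma's moderated F test with Benjamini-Hochberg adjustment over all probes (bmal1 adjusted p = 7.79e-08, clock adjusted p = 8.87e-06), as did 15.7% of all probes. The study had already counted both among its differing genes on these same arrays, so this is no independent evidence. It also measured both by real-time qPCR in the same larvae and reported that qPCR and array fold changes of its chosen genes correlated. Those qPCR values are not used here. The mean of bmal1 was -3.43 ± 0.68 at its highest time, 9 h, and -6.47 ± 0.38 at its lowest, 0 h (SD, n = 6 each), a measured range of 3.04 log2 units whose low end was not above background. Clock averaged -2.8 ± 0.91 at its highest time, 12 h (SD, n = 5), and -4.96 ± 0.81 at its lowest, 21 h (SD, n = 6), a range of 2.16 log2 units. The mean of clock at 0 h was -4.96 as well, so 0 h and 21 h were level at the bottom. The median range of all probes was 0.62. Without slide 7 the times of bmal1 were the same, with a range of 2.77, whereas clock was then highest at 9 h (-3.16, 5 larvae) in place of 12 h and lowest at 21 h (-5.22, 5 larvae), a range of 2.06. From high to low, the means of bmal1 ran 9, 12, 6, 15, 3, 18, 24, 21 and 0 h, and those of clock ran 12, 9, 15, 6, 18, 3, 24, 0 and 21 h. No 2 neighbours in either order differed beyond their spread, with adjusted p of 0.419 or more for bmal1 and 0.466 or more for clock. In the fit with a slide block, 18 h was below its neighbour 6 h for clock (-0.68, adjusted p = 0.0475).

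On the 32 arrays of slides 1 to 4, which were scanned first and held every sampling time, bmal1 had its top mean at 9 h (-3.76, 4 larvae) and its bottom mean at 0 h (-6.69, 4 larvae). Clock was highest there at 12 h (-3.17, 4 larvae) and lowest at 21 h (-5.54, 3 larvae), so both members had their extremes at the same times as over all arrays. On the 21 arrays of slides 5 to 7 both were highest at 12 h, where only 1 larva, of slide 7, was present, and lowest at 0 h (2 larvae). Without slide 7, both members still passed the F test (bmal1 adjusted p = 5.15e-07, clock adjusted p = 7.99e-07), as did 2259 of all probes.

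The pairs of sampling times show when in the day each member moved. Between successive times, 1 step passed the test, and it was the step of bmal1 after the light came on. Bmal1 rose to a mean of -4.41 at 3 h, against -6.47 at 0 h, by 2.06 ± 0.40 log2 units (SE; 95% interval 1.25 to 2.87, adjusted p = 0.00332), a step at which 0.222% of all probes rose. Bmal1 was undetected at 0 h, so the fold of this step depends on the floor set for 0 h. It was 2.88-fold with the first floor described below and 1.29-fold with the higher one. Only 4 of 6 larvae of 3 h were above background, and the others kept their measured values. These folds are thus no strict lower bounds. For clock the same step measured 0.8 ± 0.38 (SE; interval 0.03 to 1.57, adjusted p = 0.777). In the fit with a slide block, this step of clock was 0.8 ± 0.24 (adjusted p = 0.138), and 2 later steps of clock passed, 18 h against 15 h (-0.82, adjusted p = 0.0427) and 21 h against 18 h (-1, adjusted p = 0.0155), where 1.12% and 0.99% of all probes fell. Whether the members differed in a single step was not tested.

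For samplings 12 h apart, the largest differences joined the end of the light phase to its start and to the late night. At 12 h bmal1 averaged -3.55, against -6.47 at 0 h, 7.6-fold higher as measured (adjusted p = 1.56e-06). It was 5.26-fold higher with the first floor described below and 2.35-fold with the higher one. Clock averaged -2.8 at 12 h, against -4.96 at 0 h, or 4.47-fold (adjusted p = 0.000173), with 2.46% of all probes rising in this comparison. At 21 h bmal1 averaged -5.74, against -3.43 at 9 h, and was 4.94-fold lower as measured (adjusted p = 7.03e-05). It was 4.12-fold lower with the first floor and 2.05-fold with the higher one. Clock averaged -4.96 at 21 h, against -2.93 at 9 h, a fall of 4.08-fold (adjusted p = 0.000255), while 2.98% of all probes fell. At 24 h both were lower than at 12 h, bmal1 by 3.65-fold (adjusted p = 0.00219) and clock by 3.38-fold (adjusted p = 0.00264), with 2.78% of probes falling. Only 3 of 6 larvae of 24 h were above background for each member, so these folds rest partly on undetected values. With undetected values raised to the lowest value above background of their array, bmal1 at 24 h averaged -5.05 in place of -5.41. Clock stayed at -4.55, because its undetected values at 24 h already lay above this floor. Without slide 7 all 6 of these differences passed as well, though the share of all probes that passed there was not counted. For bmal1 they were then 2.59, -2.09 and -1.68 log2 units, and for clock 1.79, -2.06 and -1.6.

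In the fit without a block, the larvae of 3 h and 15 h, and those of 6 h and 18 h, were closer to each other. Between 15 h and 3 h bmal1 differed by 0.12 log2 units (95% interval -0.69 to 0.93) and clock by 0.91 (0.14 to 1.69), and neither passed (adjusted p = 0.906 and 0.139), while 9.83% of all probes did. Between 18 h and 6 h the differences were -0.98 for bmal1 (interval -1.79 to -0.17, adjusted p = 0.133) and -0.49 for clock (interval -1.26 to 0.29, adjusted p = 0.466), and 7.04% of all probes passed. Over all 36 pairs of times, 14 passed for bmal1 and 11 for clock, beside 3.58% of all tests of probes and pairs. After blocking on slide, 18 passed for bmal1 and 22 for clock, beside 7.43%, and these held all pairs called without it, but 15 h against 3 h then passed for clock (0.71, adjusted p = 0.0314, with 10.1% of probes higher) and 18 h against 6 h for both (bmal1 -1.13, adjusted p = 0.0177, clock -0.68, adjusted p = 0.0475, with 4.58% of probes lower).

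Bmal1 was at background in all larvae of 0 h and 21 h and above it in all larvae of 9 h and 12 h. The folds between these times thus depend on the floor set for undetected values. The first floor raised them to the lowest value above background of their array. Bmal1 was then 5.7-fold higher at 9 h than at 0 h and 4.12-fold higher than at 21 h. These are no strict bounds, as some undetected values of bmal1 at 0 h and 21 h lay above that floor and kept their level. The higher floor was the highest undetected value of each array. With it the bounds were 2.55-fold and 2.05-fold, and 12 h over 0 h was at least 2.35-fold. For clock no time had all larvae at background. Only 1 of 6 larvae was above background for clock at 0 h, however, and 3 of 6 were at 21 h and at 24 h. Its folds against these times thus rest partly on undetected values. With the first floor, the mean of clock was -4.83 at 21 h, in place of -4.96. At 0 h it stayed at -4.96, but its undetected values there all lay above that floor, which therefore could not move it. Its folds between single times were not computed with the higher floor.

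The 24 h larvae were set against the 0 h larvae, taken at the same hour of the cycle. Bmal1 averaged -5.41 ± 1.15 at 24 h and -6.47 ± 0.38 at 0 h (SD, n = 6 each), a difference of 1.06 ± 0.40 (SE; interval 0.25 to 1.87) that did not pass the test over all probes (adjusted p = 0.958, limma). Clock averaged -4.55 ± 0.78 at 24 h and -4.96 ± 0.39 at 0 h, a difference of 0.4 ± 0.38 (SE; interval -0.37 to 1.18, adjusted p = 0.958). Of all probes 0 (0%) passed in limma, with and without slide as a block, and 449 (3.22%) had an unadjusted p below 0.05, bmal1 among them. The larvae of the 2 times overlapped for both members.

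Larvae sampled within the light phase (3, 6 and 9 h) were next set against larvae sampled within the dark phase (15, 18 and 21 h). Bmal1 was above background in 16 of 18 larvae of the light phase and in 10 of 18 of the dark phase, and clock in 16 of 18 and 15 of 18. Bmal1 was higher in the light by 1.05 ± 0.23 log2 units (SE; 95% interval 0.59 to 1.52, 2.08-fold, adjusted p = 0.000899), along with 5.8% of all probes. Clock differed by 0.54 ± 0.22 (interval 0.09 to 0.98, adjusted p = 0.0921). Once slide was blocked, the difference was 1.23 ± 0.19 for bmal1 (adjusted p = 4.52e-06) and 0.71 ± 0.14 for clock (adjusted p = 0.00015), and 8.13% of all probes were higher in the light. The call for clock thus depended on the slides, and without slide 7 its difference was 0.67 (adjusted p = 0.00803). The difference and fold of bmal1 rest partly on undetected values of the dark phase. With undetected values raised to the lowest value above background of their array, the difference was 0.93 for bmal1 and 0.49 for clock. With the higher floor it was not computed.

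Within single slides, light minus dark was above 0 for bmal1 on 7 of 7 slides, from 0.23 on slide 6 to 2.45 on slide 7. For clock it was above 0 on 6 of 7 slides, from 0.23 on slide 2 to 1.36 on slide 4, and was -0.43 on slide 6. The slides held different hours, so these differences do not compare like with like: slide 6 had no 9 h larva, slide 2 no 21 h larva, and slide 7 only a 9 h larva in the light. Within the scan batches the difference was 1.12, 0.94 and 2.45 for bmal1 and 0.84, 0.38 and 1.26 for clock, in the order of scanning, with 1 light-phase larva in the third. The difference also depended on which hours stood for each phase. Without 9 h and 21 h it was 0.43 for bmal1 (adjusted p = 0.348) and -0.21 for clock (adjusted p = 0.657), so the higher level in the light lay mostly between these 2 times. Light minus dark was 0.52 larger for bmal1 than for clock within the same larvae (two-sided permutation test of 18 light-phase and 18 dark-phase larvae, p = 0.0189, or p = 0.0151 with permutation within slides), a test added after the values were seen. This test used measured values of all slides, and only 10 of 18 dark-phase larvae had bmal1 above background. Without slide 7 light minus dark was 1.05 for bmal1 and 0.67 for clock. The difference between the members was not tested there, nor with a floor for undetected values.

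**Figure D2:**
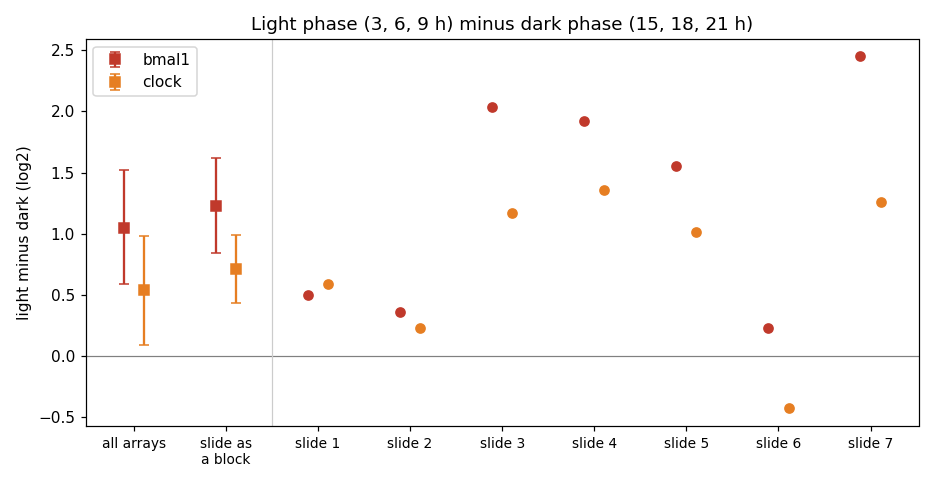
Light phase minus dark phase in log2 units (vertical axis) for bmal1 (red) and clock (orange). The squares with 95% intervals are the fits over all arrays and with slide as a block, and the circles are the plain differences of means within each of the 7 slides; bmal1 is above 0 on 7 of 7 slides and clock on 6 of 7, with -0.43 on slide 6.

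A cosine of period 24 h was then fitted to each probe. Both members followed it (bmal1 adjusted p = 1.44e-09, clock adjusted p = 4.36e-09, limma's F test of the cosine and sine terms), as did 29.6% of all probes. The fitted peak of bmal1 was at 10 h (95% interval 9.1 to 10.9 h) and that of clock at 10.8 h (9.84 to 11.8 h), both in the last hours of light. The fitted amplitude, from the mean level to the peak, was 1.27 log2 units for bmal1 (0.98 to 1.56) and 1.05 for clock (0.8 to 1.3). The trough of bmal1 was fitted to larvae of 0 h and 21 h in which it was not above background, so its amplitude depends on undetected values. With these at the lowest detected value of the array, the amplitude was 1.06 for bmal1 and 1.02 for clock, and with the highest undetected value in its place 0.57 for bmal1 and 0.79 for clock. Without slide 7 the peak was at 9.81 h with an amplitude of 1.21 for bmal1 and at 10.4 h with an amplitude of 1 for clock.

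Of the 4133 probes that followed the cosine, 238 (5.76%) peaked within 1 h of bmal1 and 278 (6.73%) within 1 h of clock. A term of period 12 h added nothing that passed for either member (adjusted p = 0.999 each), and 0.1% of all probes passed for that term. The fitted peaks moved between 9.62 and 11.8 h for bmal1 and between 10.3 and 12.5 h for clock over the 25 settings fitted, and the latest of both came from the normexp background correction.

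The courses of the 2 members were close to each other. Over the 9 means, Pearson's r between bmal1 and clock was 0.94 and Spearman's rho 0.933, given as a description because both were read from the same arrays. The peak of bmal1 minus that of clock was -0.8 ± 0.48 h (SE by the delta method with the joint covariance; 95% interval -1.77 to 0.18 h), so bmal1 led by 0.8 h in the fit but the interval includes 0. The amplitude of bmal1 minus that of clock was 0.22 ± 0.14 (interval -0.06 to 0.51), and its sign turned under the higher floor. The difference bmal1 minus clock within a larva, centred on its mean over the times, was lowest at 0 h (-0.76 ± 0.51, SD, n = 6) and highest at 3 h (0.5 ± 0.44, SD, n = 6). It did not vary over the 9 times beyond the spread of larvae (permutation test with 100000 permutations, p = 0.106), but did with permutation within slides (p = 0.0351). The 0 h value rests on larvae in which bmal1 was not above background.

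Among larvae of the same sampling time, those high in one member tended to be high in the other. The deviations from the time means correlated with Pearson's r = 0.49 (permutation within times, p = 0.00131, adjusted p = 0.0045 over the 5 relations tested) and Spearman's rho = 0.47 (adjusted p = 0.0068) over 53 larvae, and r was 0.4 without the 2 larvae farthest from the median of bmal1. This relation went with the slides. It was 0.22 with slide removed (permutation p = 0.221) and 0.27 without slide 7 (permutation p = 0.132). Within the single slides r ran from -0.25 on slide 4 to 0.7 on slide 1, over 6 to 8 larvae each, and it was 0.17, 0.37 and 0.5 within the scan batches.

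Brightness of the array moved with the values too. The deviations of bmal1 correlated with the share of probes above background (r = 0.48, permutation adjusted p = 0.0045, rho = 0.46) and with the 75th percentile of the array (r = 0.38, permutation adjusted p = 0.015, rho = 0.42). For clock these were 0.28 and 0.25 (permutation adjusted p = 0.101 and 0.118). Without the 2 farthest larvae, r was 0.46 and 0.36 for bmal1 and 0.2 and 0.13 for clock. On slide 7 the 75th percentile lay between 314 and 476, and the median deviation there was 0.72 for bmal1 and 1.14 for clock. With the 75th percentile as a covariate the relation between the members was 0.45 (permutation p = 0.00435), and with the share above background it was 0.43 (permutation p = 0.00584).

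**Figure D3:**
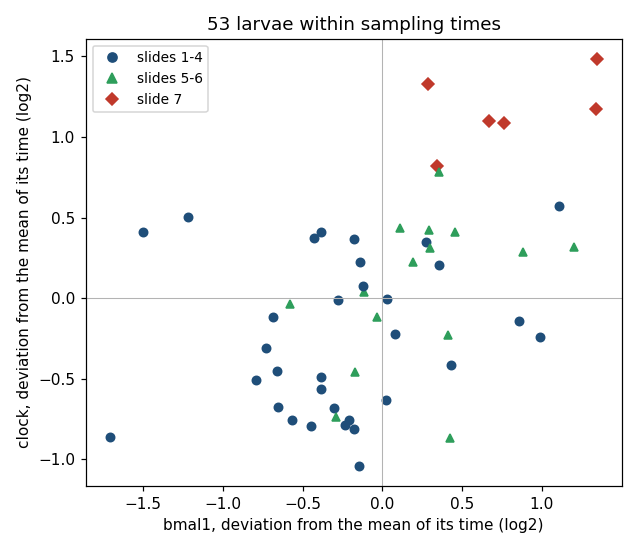
Deviation of clock (vertical axis) against deviation of bmal1 (horizontal axis) from the mean of the sampling time, in log2 units, for 53 larvae marked by slide. The 6 larvae of slide 7 (red diamonds) all lie in the upper right, and r is 0.49 with them and 0.27 without them.

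Counted the shorter way round the 24 h cycle, genes of the negative limb ran several hours ahead of the members or opposite to them. On a cycle, a peak that is earlier by this count also follows the peak of the day before. The differences below thus do not tell which gene comes first. All 5 listed genes, per1, per2, per3, cry1 and cry2, passed the F test (15.7% of all probes did) and followed the 24 h cosine (29.6%). The genes listed besides the members came from the study's tables, which chose their genes on these same arrays. That they passed is therefore no independent evidence, and the shares of all probes are no fair yardstick for them. The peak of per1 was at 4.54 h, of per2 at 3 h, of cry1 at 3.5 h and of cry2 at 3.05 h. Set against bmal1, these peaks came earlier, with differences of -5.48 h for per1 (95% interval -6.69 to -4.26 h), -6.52 h for cry1 (-7.53 to -5.5 h), -6.97 h for cry2 (-8.06 to -5.87 h) and -7.02 h for per2 (-8.74 to -5.31 h). Set against clock, the interval was -7.55 to -5 h for per1 and -9.57 to -6.06 h for per2, so none of these 4 peaks overlapped with those of the members. Only 5 of 53 arrays had per2 well above background, and its course rests on dim values.

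In its measured values, per3 was nearly the mirror image of the members. Its mean was -3.11 at 24 h, the top of the day, and -5.85 at 12 h, the bottom and the time of the top mean of clock, and none of the 5 larvae of 12 h had it above background. Its fitted peak was at 23.5 h (interval 22.9 to 24.1 h), and set against bmal1 the difference was -10.52 h (interval -11.64 to -9.4 h), against clock -11.32 h (interval -12.5 to -10.14 h). Over the 9 means its r was -0.853 with bmal1 and -0.937 with clock, whereas r of the other 4 genes with bmal1 ran from -0.246 for cry2 to 0.049 for per1. The amplitude of per3 was 1.46 log2 units (1.26 to 1.66). Its low values were mostly undetected, also beside 12 h, as only 1 of 6 larvae was above background at each of 6, 9 and 15 h. The amplitude of per3 and its r with the members thus rest partly on undetected values, and neither was computed with a floor.

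**Figure D4:**
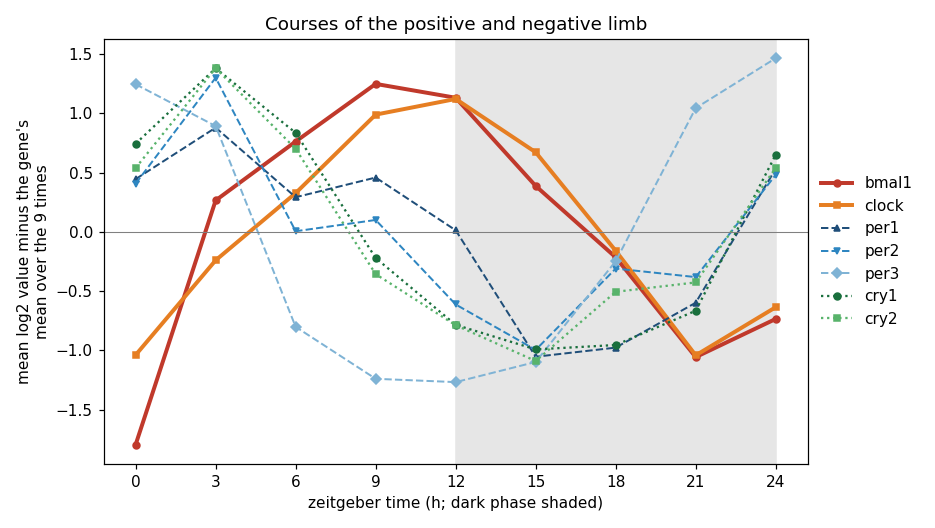
Mean log2 value at each zeitgeber time minus the mean of the gene over the 9 times (vertical axis) for bmal1 and clock (thick lines), per1, per2 and per3 (dashed) and cry1 and cry2 (dotted), with the dark phase shaded. Bmal1 and clock are highest at 9 h and 12 h, cry1 and cry2 at 3 h, and per3 is lowest at 12 h.

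The 3 accessory genes also passed both tests. ROR-gamma, a nuclear receptor of the family that activates bmal1 transcription in mammals, peaked at 3.68 h, a difference from bmal1 of -6.34 h (interval -7.46 to -5.22 h). Cryptochrome DASH, a photolyase-related light-sensitive flavoprotein, peaked at 3.78 h. Nocturnin, which belongs to a family of deadenylases and is under clock control in mammals, peaked at 0.794 h with an amplitude of 0.44, and its r with clock over the 9 means was -0.847. Its F test (adjusted p = 0.0123) was lost without replicate 3 or 4 and under 4 other settings.

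The 2 other transcription factors of the bHLH-PAS family that were listed did not share the course of the members. Hif1a and hif3a, which act in the response to low oxygen, both passed the F test (adjusted p = 0.000573 and 0.000538). Hif1a averaged 3.71 at 0 h, its top, and 3.19 at 12 h, its bottom, with an amplitude of 0.24. Hif3a averaged 0.76 at 24 h, its top, and -1.02 at 9 h, its bottom, with an amplitude of 0.68. The fitted peaks differed from that of bmal1 by -9.1 h for hif1a (interval -10.33 to -7.88 h) and -10.8 h for hif3a (interval -12.29 to -9.32 h). Of the 10 listed genes besides the members, 10 passed the F test, 6 were higher in the light phase and 0 in the dark phase, while 5.8% of all probes were higher in the light and 10.7% lower. As the study chose these genes on the same arrays, these counts do not show that clock genes differ more often than other probes. The list also leaves out clock genes that the paper places with the members. It reports a course of rev-erba like that of bmal1, and a peak of nfil3 at dusk.

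**Figure D5:**
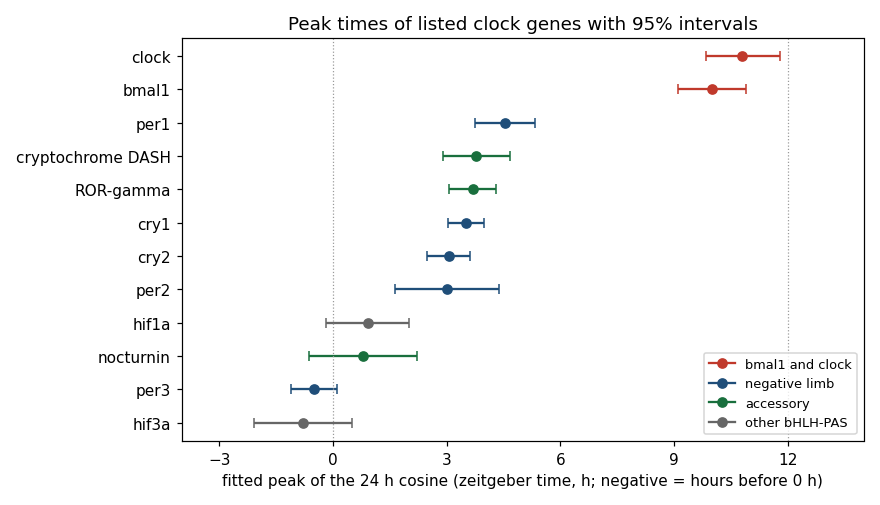
Fitted peak of the 24 h cosine in zeitgeber hours (horizontal axis, with negative hours for peaks before 0 h) and its 95% interval for the 12 listed genes, by group. Bmal1 at 10 h and clock at 10.8 h stand apart from the other 10 listed genes, the latest of which is per1 at 4.54 h. The clock genes rev-erba and nfil3, which the paper groups with the members, are not listed.

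In single larvae of the same time, the members were also set against the 10 listed genes, which gave 20 relations. The strongest were those of clock with nocturnin (r = -0.62, permutation adjusted p = 0.0002, rho = -0.59), with ROR-gamma (r = 0.57, permutation adjusted p = 0.0005, rho = 0.57) and with cry1 (r = -0.5, permutation adjusted p = 0.00107, rho = -0.48). Without the 2 larvae farthest in clock, these were -0.56, 0.52 and -0.48. With slide removed they were -0.19, 0.1 and -0.01, well below the values over all larvae. For bmal1, the relations with cry1 (r = -0.38), ROR-gamma (0.38) and nocturnin (-0.4) each had a permutation adjusted p of 0.0146, and with slide removed they were -0.3, 0.02 and -0.13. The relations of clock with cryptochrome DASH (r = -0.39, permutation adjusted p = 0.0213) and hif1a (r = -0.34, permutation adjusted p = 0.0385) passed too, and were 0.02 and -0.08 with slide removed. By Spearman's rho, the relation of clock with hif1a did not pass (-0.31, permutation adjusted p = 0.071). No relation of either member with per1, per2, per3 or cry2 passed (r between -0.13 and 0.21).

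The genes whose 9 means ran most like those of a member were sought among 2093 other probes that passed the F test and were above background in every larva of at least 1 sampling time, and are given as a description. For bmal1, r exceeded 0.9 for 36 of them (1.72%). The closest was gametogenetin-binding protein 2 (C2_3007, r = 0.959), followed by aldehyde dehydrogenase family 9 member A1 (C2_3814, r = 0.958), an enzyme of carnitine synthesis, which averaged 2.63 ± 0.28 at 9 h and 1.27 ± 0.14 at 0 h (SD, n = 6 each). Also among the 10 closest were apoptosis facilitator Bcl-2-like protein 14 (C2_8898, r = 0.943), serine incorporator 3 (C2_48154, r = 0.941), and a pair of genes of glycolysis. These were liver-type 6-phosphofructokinase (C2_4969, r = 0.941), which catalyses a committed step, and 6-phosphofructo-2-kinase/fructose-2,6-biphosphatase 2 (C2_13557, r = 0.941), which makes and breaks down its activator. Their means ranged over 0.55 and 1.09 log2 units, and those of gametogenetin-binding protein 2 over 0.56, beside a median range of 0.62 for all probes. A high r thus says nothing of the size of a course. Clock itself stood at position 10 (r = 0.94), and 3 of the 10 had no description (among them C2_24676 and C2_1659).

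For clock, r exceeded 0.9 for 94 probes (4.49%). The closest was cyclin-dependent kinase inhibitor 1 (C2_1055, r = 0.988), known as p21, a brake on the cell cycle, which averaged 5.62 ± 0.25 at 12 h (SD, n = 5) and 1.33 ± 0.35 at 21 h (SD, n = 6), 19.6-fold apart. Then came liver-type 6-phosphofructokinase (r = 0.985), the histone methyltransferase EHMT2 (C2_23348, r = 0.984) and motile sperm domain-containing protein 2 (C2_2814, r = 0.984). In this order, their means ranged over only 0.55, 0.51 and 0.93 log2 units. The E3 ubiquitin ligase ZNRF2 (C2_4669, r = 0.976), which averaged 1.7 ± 0.38 at 12 h and 0.07 ± 0.36 at 21 h, was among the 10 as well. The others with a description were adenosine 3'-phospho 5'-phosphosulfate transporter 2 (C2_4392, r = 0.972), cyclin-dependent kinase 17 (C3_c46150, r = 0.971), gametogenetin-binding protein 2 (r = 0.968) and the TNF receptor type 1-associated DEATH domain protein (C2_2326, r = 0.968). Bmal1 stood at position 30 for clock.

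The most opposed courses were those of genes high at the end of the night. Among the 5 most opposed to bmal1, angiopoietin-related protein 7 (C2_5212, r = -0.954) had a description. It averaged 2.78 ± 0.17 at 0 h (SD, n = 6) and 1.27 ± 0.33 at 12 h (SD, n = 5). Among the 5 most opposed to clock, angiotensin-converting enzyme 2 (C2_1538, r = -0.982) had one, and C2_4089 (r = -0.993) and C3_c13977 (r = -0.99) without a description were the first. C3_c13977 was 10-fold lower at 12 h than at 21 h. The make-up of these lists was not stable. Of the 10 closest, 4 remained for clock and 6 for bmal1 without slide 7, and 6 remained for each with Spearman's rho in place of Pearson's r. Leaving out single replicate numbers left 4 to 7 for bmal1 and 1 to 7 for clock, with 1 without replicate 6, and normexp background correction left 2 for bmal1 and 0 for clock.

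The 39 clones that the study set beside bmal1 and clock were chosen on these same arrays and are no independent evidence of a shared course. Of these, 37 passed the F test, with a median range of 1.02 log2 units, beside 0.95 for all probes past the test. Their highest mean was at 9 h in 17 and at 12 h in 22, and the lowest at 0 h in 24, at 21 h in 11 and at 24 h in 4. The median r over the 9 means was 0.906 with bmal1 and 0.939 with clock, and 32 of 39 were closer to clock. Apart from p21, the largest ranges were those of C3_c8931 (an uncharacterised protein, 9.03-fold between 9 h and 0 h), deltex-1, a regulator of Notch signalling (C2_54553, 7.44-fold between 12 h and 24 h), the mitochondrial carrier SLC25A36 (C2_47279, 6.37-fold between 9 h and 0 h) and the coenzyme Q-binding protein COQ10B (C2_18271, 4.15-fold between 12 h and 0 h).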

How the data were processed

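Per the labels, each array received RNA of 1 whole larva in 1 dye, on an Agilent platform, and the submitters' processing notes name Agilent Feature Extraction 11.5.1.1. The authors deposited the scanner output with intensity values in fluorescence units after background correction, and flags of quality. They also deposited a table of log2 values, which proved to be scaled to the 75th percentile of the array with the median of each probe subtracted. This was checked against the scanner values, with r of 0.999 or more on every array. Clone codes were paired with names from the study's tables.

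Work was done in R 4.3.3 with the package data.table, version 1.17.8. On each array 536 control spots and, over all arrays, 974 spots flagged as outliers were left out. The 75th percentile was subtracted from log2 intensity, and replicate spots were averaged per probe. Tests were run in limma 3.58.1 on 9 groups (44 residual and 2.95 prior degrees of freedom), with Benjamini-Hochberg adjustment over 13940 probes within each comparison and a threshold of 0.05. The main fit had no block. Slide (7) and scan batch (3) were used as blocks in alternatives. Peak times come from cosine fits with 95% intervals by the delta method. Permutation tests of single values used 100000 permutations of larvae.

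Named genes were the members, the listed clock genes, and, for each member, the 10 probes with the highest and the 5 with the lowest r over the 9 means, named where a description was given, plus the 5 study clones of largest range. The members, lists and tests were chosen with earlier results of these data known. The depth of an array is its signal over background, and the number of arrays limits the precision. Alternatives were other background corrections, normalisations, tests, filters, blocks and groupings, and leaving out larvae. The planned normexp correction used the median spot signal, in place of the mean. Those added after seeing the data were leaving out slide 7, floors for undetected values in the rhythm, array brightness and share above background as covariates, normexp without offset, and leaving out single hours of the light comparison. Procedures were tested on simulated data. Plots were made in Python 3.11.15 (matplotlib 3.10.9).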

Additional observations from a re-analysis of the deposited data

Results flagged for a closer look

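In 108 groups of larvae (12 genes at 9 times) 2 held a larva far from the others, and about 1 in 20 groups does so by chance. Bmal1 at 9 h had 1 larva at -2.09 (replicate number 6, on slide 7), while the next was at -3.46 and the lowest at -4. Hif3a at 24 h had 1 larva at 2.08 (replicate number 3), while the next was at 0.92 and the lowest at 0.28.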

How the results depend on the processing

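The tests of both members over the sampling times and for a 24 h rhythm passed under all alternatives but one, normexp background correction with an offset of 50, which lies above the intensity of bmal1 on 51 of 53 arrays and of clock on 48 of 53. It gave adjusted p of 0.318 for bmal1 and 0.352 for clock over the times, and 0.32 and 0.129 for the rhythm. Light minus dark was then 0.09 for bmal1 and -0.0032 for clock, 931 probes differed over the times (2194 in the report), 1 of 26 member tests of successive times and times 12 h apart passed (7 in the report), 4 of 10 listed clock genes and 24 of 39 study clones passed. Normexp without an offset, added after seeing the data, kept the 4 member tests (adjusted p of 0.0102 to 0.0369), with light minus dark of 0.29 for bmal1 (adjusted p = 0.532), 4 of the 26 tests and 6 listed clock genes.

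Clock light minus dark passed with quantile normalisation (0.79), median centring (0.62), slide block (0.71), scan batch block (0.72), without slide 7 (0.67), with the share above background as a covariate (0.69), with 12 h counted to light and 0 and 24 h to dark (0.99) and without 3 h and 15 h (1.26). Without 9 h and 21 h it was -0.21, and bmal1 was 0.43. Leaving out each replicate number in turn gave 0.42 to 0.71 for clock, with a call without replicate 6, and 0.84 to 1.16 for bmal1. Within single slides, bmal1 gave 2.04 on slide 3, 1.92 on slide 4, 0.23 on slide 6 and 2.45 on slide 7 (which is scan batch 3), and clock 1.36 on slide 4, -0.43 on slide 6 and 1.26 on slide 7.

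The number of probes over the times was 4078 with slide block, 3952 with replicate block and 1440 to 2052 on leaving out replicate numbers, and 12 of the 26 member tests passed with slide block. The correlation of the members across larvae no longer passed with quantile normalisation (0.29), slide block (0.22), scan batch block (0.2), replicate block (0.33) or without slide 7 (0.27). It was 0.95 with normexp and 0.85 with normexp without an offset, and 0.27 to 0.68 on leaving out replicate numbers, lost without replicate 6. The peak difference passed with undetected values at a floor (-0.98 h) and without the larvae of 0 h (-1.11 h). The difference bmal1 minus clock over the times passed with slide block (permutation p = 0.0351). The cause was not tested for these.

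Replicate numbers are shared between times. The labels do not say that a number marks a batch, but the numbers largely follow the slides: 8 of 9 larvae numbered 1 were on slide 1, 7 of 9 numbered 2 on slide 2, and those numbered 6 were on slides 6 and 7, so the replicate block and the slide block overlap. Larvae of the same number correlated with a median r of 0.13, against -0.03 for other numbers, and 31 of 53 larvae correlated best with their own number. The replicate block gave clock light minus dark an adjusted p of 0.0136 (0.54). Per2 lost its call under 3 alternatives, and the bmal1 folds of 5.7 and 4.12 with the first floor were 2.55 and 2.05 with the higher floor. Low signal over background limits both members, with 0 of 6 larvae detected for bmal1 at 0 h and 21 h and 1 of 6 for clock at 0 h.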
